A study of Mus musculus with 4 samples.

Results

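The genes that encode the mitochondrial respiratory chain and ATP synthase were compared between Control lenses and lenses with a conditional knockout of Celf1 (Celf1 cKO). The members were chosen by symbol, as the probes whose symbol starts with Nduf, with Sdh and a letter from a to d, with Uqcr, with Atp5, or with Cox and a digit from 4 to 8, together with Cycs and Cyc1. The rule matched 123 probes with 83 symbols. Probes detected above background (detection p-value under 0.05) on at least 2 of the 4 arrays were retained, which left 99 probes of 75 genes among 11517 genes tested. Of the 75 genes, 69 encode subunits of complexes I to V or cytochrome c. The other 6 match the rule by symbol but are no subunits. Ndufaf1 and Ndufaf2 are complex I assembly factors, and Cox7a2l helps to join complexes into supercomplexes. Emc8 belongs to a complex of the endoplasmic reticulum, and Dmac2 and Dmac2l were once named after ATP synthase.

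CELF1 is an RNA-binding protein that controls the splicing, decay and translation of messenger RNAs. The Celf1 cKO mice carried one germline knockout allele with a lacZ knock-in, one floxed allele with loxP sites around exon 5, and the Pax6GFPCre transgene, which drives Cre recombinase in cells of the lens and pancreas lineages. Control mice had the same lacZ knock-in on one allele and a wild-type allele on the other, so that the knock-in was shared by both groups. RNA of 1 lens at postnatal day 6 was placed on each Illumina MouseWG-6 v2.0 BeadChip, with n = 2 lenses for Celf1 cKO and n = 2 for Control, each labelled A and B. The mice had a mixed background of the C57BL/6 and FVB strains. The study saw incomplete deletion by Cre in RNA sequencing of newborn lenses, which are not the lenses measured here. The labels do not state whether the lenses of a group came from separate animals, so the p-values measure only the spread between these samples.

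Complex I accepts electrons from NADH, and complex II, which is succinate dehydrogenase of the citric acid cycle, accepts them from succinate. Complex III passes the electrons to cytochrome c, and complex IV (cytochrome c oxidase) passes them from cytochrome c to oxygen. Complexes I, III and IV pump protons across the inner membrane, and the return of the protons through the c-ring of complex V (ATP synthase) drives the synthesis of ATP. In the lens, mitochondria are found in the epithelium and the outer fiber cells and are removed as fiber cells mature.

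Celf1 itself was reduced in the cKO lenses, with log2 values of 7.45 and 6.95 in cKO A and B against 8.71 and 8.55 in Control A and B (log2 fold change -1.43 ± 0.19 SE, limma adjusted p = 0.00978, and -1.53 with adjusted p = 0.0563 without Control B). The cKO arrays were the brighter ones: 16261 and 16925 probes were detected on the cKO arrays against 14542 and 14180 on the Control arrays, and the median unnormalized intensity of the retained member probes was 1190.2 and 1431.3 against 728.8 and 646.8. All log2 values below were therefore taken after quantile normalization, and they are relative to the other genes on the array. Xist, which is transcribed from the inactive X chromosome, was detected in both cKO lenses (log2 values 7.42 and 7.27) and in no Control lens (4.26 and 4.39), while the Y-linked Ddx3y was at 6.81 and 4.83 in cKO A and B against 8.99 and 8.82 in Control. Another Y-linked gene, Uty, was near background, at 4.67 and 4.89 in cKO against 4.47 and 4.52 in Control, and was detected on no Control array. The sex of the mice was not labelled, and an effect of genotype and one of sex cannot be told apart in these samples. Of the marker genes of lens fiber cells, 8 of 10 were tested, 7 had a lower mean in cKO and 2 were reduced, while of those of the lens epithelium 3 of 4 were tested, all 3 had a lower mean and 1 (Foxe3) was reduced. By the rule for calls given below, 5.64% of all genes were reduced. The part of these markers in the results was not tested. In whole lenses, fewer cells of a type and less RNA per cell cannot be told apart.

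Among the 69 subunits and cytochrome c, 5 were elevated in Celf1 cKO and 0 were reduced. Calls were made with limma, and required an adjusted p under 0.05, a log2 fold change beyond 0.58 in either direction and an average log2 signal above 4.6. Over all genes tested, the same rule called 11.6% of them, with 6.01% elevated and 5.64% reduced. The elevated share of the subunits was 7.25%, near that of all genes. By unadjusted p alone, with no threshold on fold change or signal, 10 subunits were under 0.05 in limma, of which 8 were higher and 2 lower in cKO. Over all genes 31.9% had such a p, with 16.9% higher and 15.0% lower. The split depended on the scaling: with a common median over all probes 47 members were called and with no normalization 49, all elevated, while 97.3% and 97.7% of the calls over all genes were then elevated against 51.6%. With the deposited normalized table, values under 1 set to 1, no member was called, among 7 calls over all genes. With 16 added to that table in place of the floor, an alternative chosen after seeing the data, 6 members and 1349 genes were called. The elevated subunits were Ndufb3 of complex I, Sdhc of complex II, Cox6a2 of complex IV, and Atp5g2 and Atp5g3 of the c-ring of complex V. Of the 6 members that are no subunits, Dmac2l was reduced and the others were not called. All 6 called genes were detected on all 4 arrays, each by 1 retained probe.

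**Figure D1:**
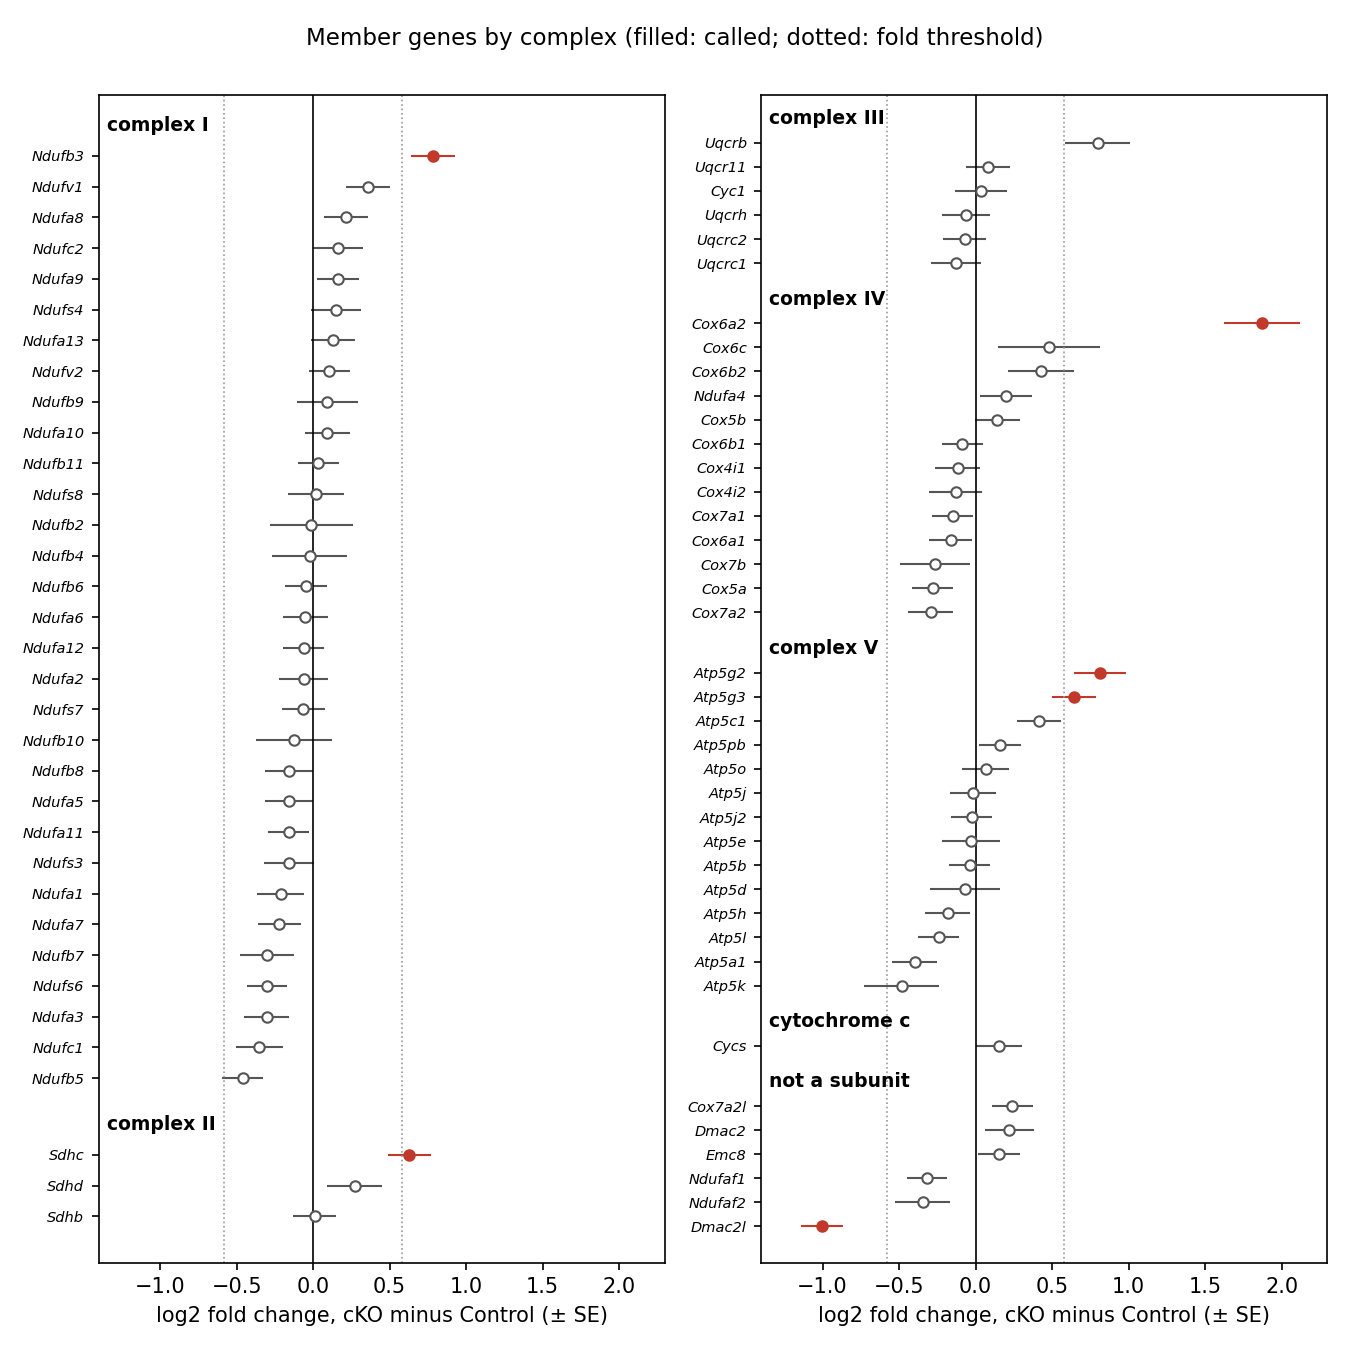
Log2 fold change (cKO minus Control) of the member genes on the horizontal axis, sorted within each complex, with the standard error of limma as bars. Filled points are the 6 called genes and dotted lines mark the fold threshold of 0.58. Cox6a2 lies farthest to the right at 1.87, Dmac2l farthest to the left at -1.003, and most subunits lie within the dotted lines.

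Most subunits differed by less than the fold threshold (63 of 69). The log2 fold changes of the subunits ran from -0.30 at the 10th percentile to 0.44 at the 90th percentile, against -0.50 and 0.53 over all genes, with a median of -0.03 against 0.01 over all genes. The cKO mean was higher for 30 subunits and lower for 39. For 30 of the 69 subunits (43.5%) the cKO and Control values had no overlap, against 62.3% of all genes. In 13 of the 30 the cKO lenses were higher and in 17 lower, while over all genes the shares were 32.6% and 29.7%. The median standard error of the subunits was 0.148, and with 2 arrays against 2 an exact permutation test of a single gene cannot go below a two-sided p of 0.333.

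Cox6a2 showed the largest change of the members. It encodes the form of subunit 6a of cytochrome c oxidase that is known from heart and skeletal muscle. Its unnormalized intensity was 847 and 876.7 in cKO A and B against 213.6 and 112.6 in Control A and B. After normalization the log2 values were 9.30 and 9.24 against 7.79 and 7.01. Both cKO lenses were above both Control lenses, and the Control lenses differed more from each other (SD 0.55) than the cKO lenses did (SD 0.04). The log2 fold change was 1.87 ± 0.25 (SE), a 3.66-fold higher signal (limma adjusted p = 0.00916). When one lens was left out, the log2 fold changes ran from 1.497 to 2.26 and adjusted p from 0.0111 to 0.0424. Each fit of this kind, here and below, leaves a group with a single lens, so that the spread within groups comes from the other group alone and the single lens is assumed to vary like it. With the deposited normalized table, values under 1 set to 1, it missed the threshold (1.97, adjusted p = 0.0771), as it did with no detection filter (adjusted p = 0.0759) and with treat against the fold threshold (adjusted p = 0.0668), and with 16 added in place of the floor it passed (1.88, adjusted p = 0.00774). The probe lies at chr7:135349161-135349210 in the coordinates of the files, which name no genome build, and it shares no run of 20 bases with another probe of the array.

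The partner forms of the same complex were not called. Cox6a1, the widely expressed form, had log2 values of 11.85 and 11.86 in cKO against 11.93 and 12.11 in Control, and its log2 fold change of -0.16 ± 0.14 did not pass the test (limma adjusted p = 0.467). The 2 probes of Cox6a1 gave -0.28 and -0.05. Of the other tissue forms, Cox6b2 of testis was at 4.94 and 5.45 in cKO against 4.58 and 4.95 in Control (log2 fold change 0.43 ± 0.22, adjusted p = 0.222), with overlapping groups and values from 0.15 without cKO B to 0.69 without Control B, and 0.04 with a common median over detected probes. Cox7a1 of heart and muscle was at 5.98 and 5.97 against 6.15 and 6.10 (-0.15 ± 0.13, adjusted p = 0.482), and Cox4i2, known from lung, was near background and differed by -0.13 ± 0.18, with -0.59 for the deposited table with its floor and -0.75 (adjusted p = 0.0351, not called by the full rule) for a common median over detected probes. Cox8b of heart and muscle and Cox8c of testis were detected on no array. The widely expressed partners Cox4i1 (-0.12 ± 0.14), Cox6b1 (-0.09 ± 0.13) and Cox7a2 (-0.29 ± 0.14) did not pass the test either. Ndufa4, a subunit of complex IV first assigned to complex I, differed by 0.20 ± 0.17. The signs of Cox4i1, Cox6a1, Cox6b1, Cox7a1 and Cox7a2 turned positive when the arrays were not normalized or were set to the same median over all probes.

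**Figure D2:**
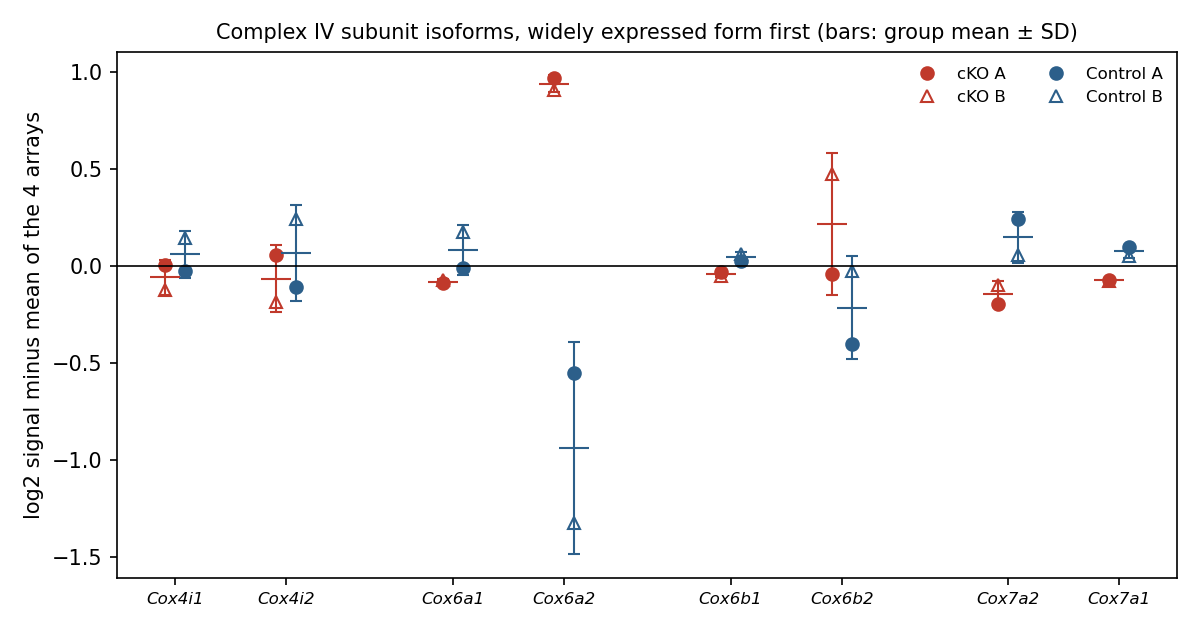
Log2 signal of complex IV subunit forms on each array, as the difference from the mean of the gene over the 4 arrays (vertical axis), with the widely expressed form to the left of its tissue form. Points are arrays and bars are group means ± SD (n = 2). Cox6a2 is the only one of the 8 genes shown that passed the test, with cKO lenses about 1 log2 unit above the mean and Control lenses below it.

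Markers of skeletal muscle were set beside Cox6a2 because of its known tissue. Of 10 such markers, 7 were detected on fewer than 2 arrays, and the 3 tested (Mylpf, Myh8 and Des) were near background with none called. Their summed level after normalization, on the linear scale, was 81.8 and 79.6 in cKO against 73.7 and 90.4 in Control. A large part of each sum is the offset of 16 added to every probe, so the sums say little about muscle RNA. One by one, Mylpf differed by 0.20 and Myh8, which was detected on no Control array, by 0.11, while Des differed by -0.35. The groups did not overlap in any of the 3, nor did they in 62.3% of all genes. The part of the muscle markers in the result was not tested.

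In complex V, both c-ring genes on the array were elevated. Atp5g2 and Atp5g3 encode the same mature c subunit, which forms the rotating ring of the membrane part. Atp5g2 had log2 values of 9.50 and 9.88 in cKO against 8.94 and 8.80 in Control, and Atp5g3 had 13.33 and 13.54 against 12.81 and 12.78. For both genes the cKO lenses were above the Control lenses. The log2 fold change was 0.81 ± 0.17 for Atp5g2 (limma adjusted p = 0.0294) and 0.64 ± 0.14 for Atp5g3 (adjusted p = 0.0351). Neither call held throughout when lenses were left out. Atp5g3 lost the call when any one lens was left out, with log2 fold changes from 0.57 to 0.74 and adjusted p from 0.0636 to 0.223. It also lost the call under cyclic loess (0.48, adjusted p = 0.0605), with a common median over detected probes (0.38, adjusted p = 0.0799), and with the deposited table with its floor (0.25, adjusted p = 0.395) or with 16 added (0.25, adjusted p = 0.309). Atp5g2 kept the call only without cKO A (1.003, adjusted p = 0.0384), and lost it without cKO B (0.63, adjusted p = 0.194), Control A (0.88, adjusted p = 0.0516) or Control B (0.74, adjusted p = 0.114). The third c-ring gene, Atp5g1, had no matched probe and was not measured here.

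No other ATP synthase subunit passed the test. The catalytic head and central stalk (5 genes) ran from -0.40 for Atp5a1, the alpha subunit, to 0.41 for Atp5c1, the gamma subunit, which was at 11.32 in both cKO lenses against 11.01 and 10.80 in Control (adjusted p = 0.104). Atp5b, the catalytic beta subunit, was at 14.09 and 14.08 in cKO against 14.17 and 14.08 in Control. The peripheral stalk (4 genes) ran from -0.18 to 0.16 (Atp5pb, whose probes disagreed), and the small membrane subunits (3 genes) from -0.48 to -0.03. Atp5k, subunit e, had the lowest value of the complex, with 4.75 and 5.22 in cKO against 5.17 and 5.77 in Control (-0.48 ± 0.25, adjusted p = 0.224), overlapping groups, and values from -0.81 without Control A to -0.20 without Control B.

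**Figure D3:**
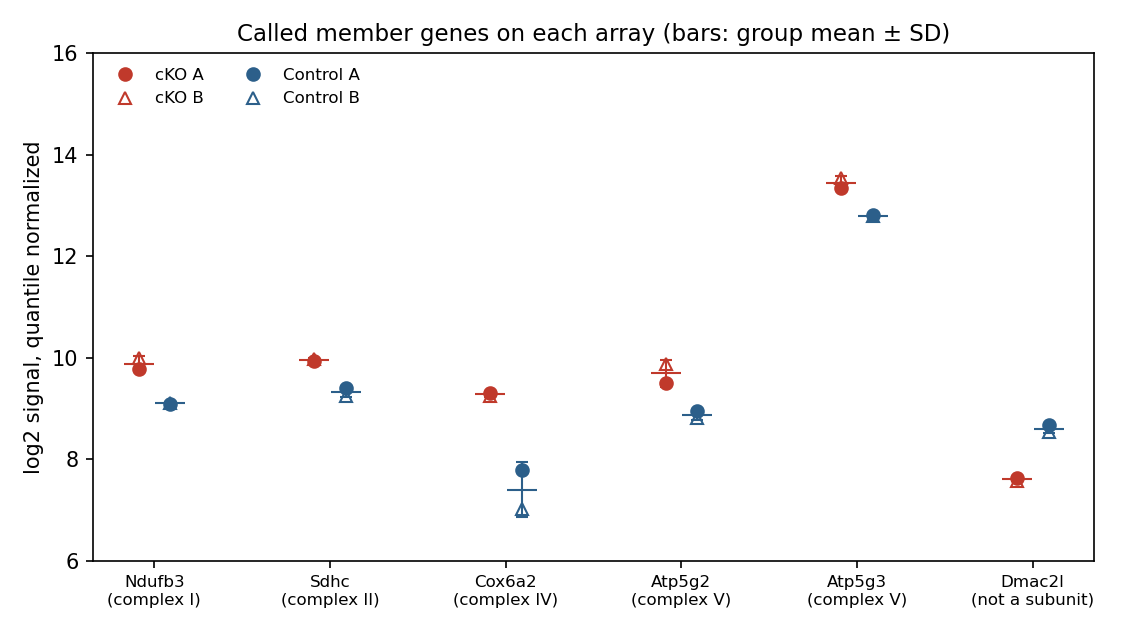
Quantile normalized log2 signal of the 6 called members on each array (vertical axis), with group means ± SD as bars (n = 2). The cKO lenses lie above the Control lenses for the 5 subunits and below them for Dmac2l, with the widest spread between the Control lenses of Cox6a2.

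In complex I, 32 of 34 genes were tested and only Ndufb3 was elevated. It encodes an accessory subunit of the membrane arm. Its log2 values were 9.78 and 9.98 in cKO against 9.09 and 9.10 in Control, so that the Control lenses were almost the same (SD 0.005) and both were below the cKO lenses. The log2 fold change was 0.78 ± 0.14 (limma adjusted p = 0.0210). It kept the call without Control A (0.78, adjusted p = 0.0448) and lost it without cKO A (0.88, adjusted p = 0.0532), cKO B (0.68, adjusted p = 0.157) or Control B (0.78, adjusted p = 0.0812). The lowest value of the complex was that of Ndufb5, a subunit of the same arm, with 6.97 and 7.04 in cKO against 7.47 and 7.46 in Control (-0.46 ± 0.13, adjusted p = 0.0656).

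The parts of complex I had medians near that of all genes. The 6 core subunits tested, which belong to the arm that takes up electrons, had a median log2 fold change of 0.03 (-0.16 to 0.36), the highest being that of Ndufv1, the NADH-binding subunit, with 10.44 and 10.43 in cKO against 10.18 and 9.96 in Control (adjusted p = 0.144). The 12 Ndufb and Ndufc subunits had a median of -0.03, and the 12 Ndufa subunits -0.06. Ndufs1, a core subunit, and Ndufab1, the acyl carrier protein, were detected on no array by their probes. Of the X-linked subunits, Ndufa1 differed by -0.21 ± 0.15 and Ndufb11 by 0.03 ± 0.13, and Cox7b of complex IV by -0.26 ± 0.23, with none called. With the deposited table Ndufa1 was at -0.59, and it was called reduced when 16 was added (adjusted p = 0.0485). With a common median over detected probes Cox7b was at -0.598 and Ndufb11 at -0.46, neither called.

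Complex II had 3 of its 4 genes tested. Sdhc, a membrane anchor that binds ubiquinone, was elevated, with log2 values of 9.93 and 9.98 in cKO against 9.40 and 9.25 in Control (0.63 ± 0.14, limma adjusted p = 0.0341). The call stood without Control A (0.71, adjusted p = 0.0443) and was lost without cKO A (0.65, adjusted p = 0.128), cKO B (0.61, adjusted p = 0.205) or Control B (0.55, adjusted p = 0.114). A further probe of Sdhc was detected on no array, and with that probe averaged in the log2 fold change was 0.31. The other anchor Sdhd was at 5.41 and 5.18 in cKO against 5.21 and 4.83 in Control (0.27 ± 0.18), and the iron-sulfur subunit Sdhb differed by 0.01 ± 0.14. Both probes of the flavoprotein Sdha were at background on all arrays.

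In complex III, 6 of 8 genes were tested and none was called. Uqcrb, an accessory subunit that binds ubiquinone, was nearest, with 6.26 and 6.30 in cKO against 5.79 and 5.17 in Control (0.80 ± 0.21, limma adjusted p = 0.0543). Both cKO lenses were above the Control lenses, and the gene passed the test in 8 of 16 alternatives with all lenses, among them the replicate block (0.80, adjusted p = 0.0208) and cyclic loess (0.74, adjusted p = 0.0439). Of the 8, the common median over all probes (1.35) and no normalization (1.39) are the scalings in which over 97% of all calls were elevated. It was below the fold threshold with no background correction (0.45, adjusted p = 0.0560) and with an offset of 50 (0.499, adjusted p = 0.0582). When one lens was left out it passed only without Control A (1.13, adjusted p = 0.0239), and it was lowest without Control B (0.51). Uqcrc1, core protein 1, had the lowest value (-0.13 ± 0.16), with 10.70 and 10.64 in cKO inside the range of 10.63 to 10.97 in Control. Cytochrome c1 (Cyc1) differed by 0.03 ± 0.17. Cytochrome c (Cycs) was at 7.17 and 7.27 in cKO against 7.17 and 6.96 in Control (0.15 ± 0.15, adjusted p = 0.513). The Rieske protein Uqcrfs1 and Uqcrq were detected on no array.

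In complex IV, 13 of 16 genes were tested. Outside the tissue forms, Cox6c had the highest value, but it rested on a single lens: cKO B was at 10.68 while cKO A, at 9.66, lay between the Control lenses at 9.94 and 9.44 (0.48 ± 0.33, adjusted p = 0.364). Cox5a was lower in both cKO lenses (11.18 and 11.28 against 11.53 and 11.50) without passing the test (-0.28 ± 0.14, adjusted p = 0.204).

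The medians of complexes I, III, IV and V were close to that of all genes, that of complex II was higher, and their order depended on how the arrays were scaled. Relative to the median of all genes, the median log2 fold change was -0.06 for complex I, 0.26 for complex II, -0.03 for complex III, -0.13 for complex IV and -0.04 for complex V. The value of complex II, with 3 genes tested, was that of Sdhd alone (log2 fold change 0.27 ± 0.18 before the median of all genes was subtracted). Sdhd had overlapping groups and a low average log2 signal of 5.16, and was not called (limma adjusted p = 0.340). No p was computed over a complex, since its genes are not replicates. When each array was set to the same median, or not normalized, the relative medians were 0.14, 0.12, 0.24, 0.04 and 0.14 in the same order, so that the sign turned for complexes I, III, IV and V. The sign of complex III also turned under cyclic loess (0.0194), with no detection filter (0.0092) and with detection on all 4 arrays (0.0139). Complex II, with 3 genes, kept a positive sign in each of these settings, and fell to 0.12 with no background correction and 0.14 with an offset of 50.

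**Figure D4:**
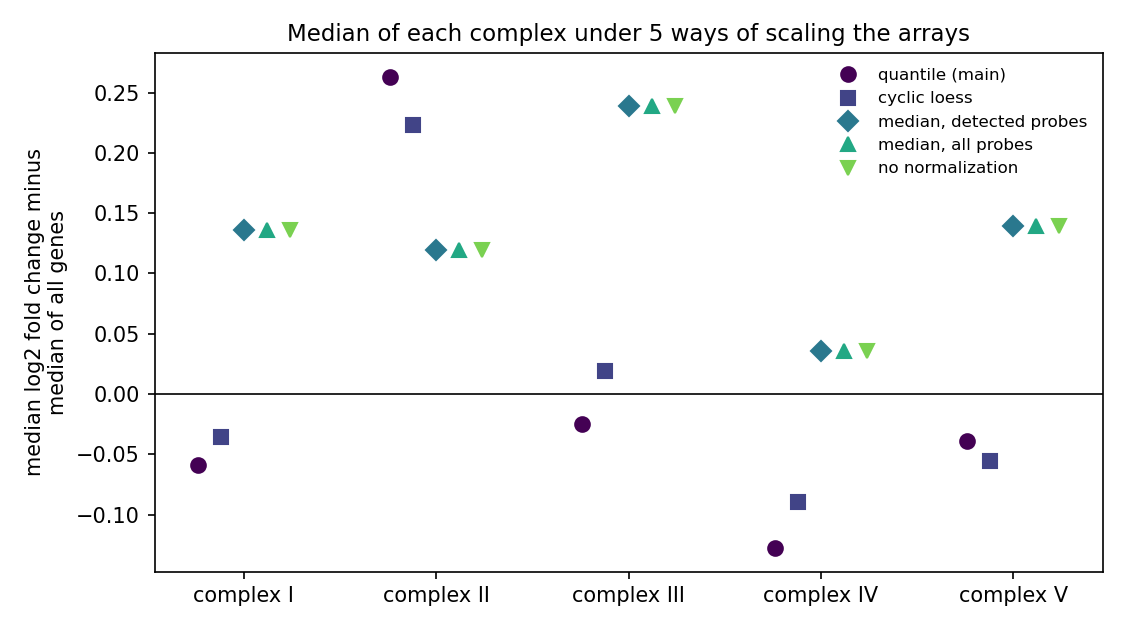
Median log2 fold change (cKO minus Control) of each complex minus the median of all genes tested (vertical axis), under 5 ways of scaling the arrays (symbols). Complexes I, III, IV and V lie below 0 with quantile normalization and above 0 when arrays share a median or are not normalized, where the values of the 3 settings coincide.

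Of the 20 members with more than 1 retained probe, 9 had probes that differed in direction, among them Atp5j, Atp5l, Atp5o, Atp5pb, Cycs, Ndufb11, Ndufs4 and Sdhb. In Atp5pb, subunit b of the peripheral stalk, and in Ndufb11 the probe with the positive value (0.70 and 0.29) was detected on both cKO arrays and no Control array, so that it was retained only through the cKO lenses. The other probes gave -0.08 and -0.15 for Atp5pb and -0.23 for Ndufb11. The probes of Sdhb, detected on all 4 arrays, gave -0.39, 0.15 and 0.28. The probe at -0.39 was near background, with unnormalized intensities from 54.7 to 60.6, against 392.5 to 1310.6 for the others. Atp5l, subunit g, had probes at 0.00 and -0.48. Values of these genes depend on which probe is taken.

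Dmac2l, listed in the files as Atp5s and known as coupling factor B, was reduced. Its unnormalized intensity was 283.6 and 293.2 in cKO against 367.8 and 269.1 in Control, so that the groups overlapped before normalization. After it, the log2 values were 7.62 and 7.57 against 8.66 and 8.54, and the log2 fold change was -1.003 ± 0.14 (limma adjusted p = 0.0102). With no normalization between arrays it was -0.15 (adjusted p = 0.589). The call stood without cKO A (-1.03, adjusted p = 0.0360) and without Control A (-0.94, adjusted p = 0.0293), and was lost without cKO B (-0.97, adjusted p = 0.0779) or Control B (-1.07, adjusted p = 0.0505).

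The promoters of 4 of the 6 called members are shown, those of the elevated Atp5g2, Atp5g3 and Ndufb3 and of the reduced Dmac2l. For the elevated Cox6a2 and Sdhc no promoter was available. The 250 bases before the transcription start are given 5′ to 3′ on the strand of the gene (RefSeq, GRCm38.p6), and 62 of the 75 members had a promoter in the table. Capitals mark matches, on either strand, to GCGCATG (from the palindromic NRF1 motif), CCGGAAG (ETS family with GABP), AAGGTCA (ERR family), AAGATGG (YY1), GGGCGG (SP family) or CAGCTG (E-box). The ATP synthase promoters are at chr15:102671048-102671297 (minus strand, Atp5g2) and chr2:73911327-73911576 (minus strand, Atp5g3), and the others at chr1:58586147-58586396 (plus strand, Ndufb3) and chr12:69724695-69724944 (plus strand, Dmac2l).
Atp5g2: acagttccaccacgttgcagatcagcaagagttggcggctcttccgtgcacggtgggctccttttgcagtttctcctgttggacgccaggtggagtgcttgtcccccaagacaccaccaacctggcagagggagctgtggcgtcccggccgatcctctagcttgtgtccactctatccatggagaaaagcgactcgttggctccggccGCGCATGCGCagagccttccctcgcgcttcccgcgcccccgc
Atp5g3: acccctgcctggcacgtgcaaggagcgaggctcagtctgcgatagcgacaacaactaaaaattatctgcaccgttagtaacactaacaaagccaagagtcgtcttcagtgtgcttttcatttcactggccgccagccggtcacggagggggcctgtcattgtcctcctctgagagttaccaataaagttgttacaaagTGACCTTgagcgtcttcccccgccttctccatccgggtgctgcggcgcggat
Ndufb3: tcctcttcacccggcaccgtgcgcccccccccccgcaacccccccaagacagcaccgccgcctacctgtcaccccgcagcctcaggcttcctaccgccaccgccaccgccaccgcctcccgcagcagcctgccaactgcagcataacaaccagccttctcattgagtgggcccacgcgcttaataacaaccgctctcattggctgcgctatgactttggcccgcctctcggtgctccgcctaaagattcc
Dmac2l: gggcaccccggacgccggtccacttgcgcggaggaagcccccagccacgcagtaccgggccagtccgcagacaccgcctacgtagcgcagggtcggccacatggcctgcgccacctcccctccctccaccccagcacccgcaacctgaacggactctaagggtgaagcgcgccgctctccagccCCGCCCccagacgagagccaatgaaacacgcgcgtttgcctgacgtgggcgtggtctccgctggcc

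In these bases Atp5g2 held the NRF1 letters on both strands, overlapping each other, Atp5g3 an ERR match and Dmac2l an SP match, while Ndufb3 held none of the 6 motifs. With the 50 bases after the start included, the NRF1 letters were in 22.6% of 62 windows of 57 subunit genes against 3.91% of all 32851 windows of the table. The ETS motif was in 24.2% against 8.86%, the ERR motif in 11.3% against 4.72%, the YY1 motif in 16.1% against 6.34%, the SP motif in 41.9% against 35.7%, and the E-box in 6.45% against 16.3%. None of these motifs contains another, but their matches can share bases. A match describes the letters and was not tested as a binding site.

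Genes of mitochondrial biogenesis include transcription factors of the nucleus and proteins that act on mitochondrial DNA and RNA. Of 14 tested, 1 was elevated and 1 reduced, a share near the 11.6% of all genes. Lrpprc, an RNA-binding protein that stabilizes mitochondrial messenger RNAs, had log2 values of 6.22 and 6.35 in cKO against 5.10 and 5.37 in Control (1.05 ± 0.16, limma adjusted p = 0.0121), and lost the call without cKO B (0.93, adjusted p = 0.101). Lrpprc was called in 13 of 16 alternatives with all lenses. The fits that lost the call included the deposited table with its floor (1.62, limma adjusted p = 0.0943) and no detection filter (1.05, adjusted p = 0.0569). Its value was 0.59 with no background correction and 0.64 with an offset of 50. Gabpa, the DNA-binding subunit of the ETS factor GABP, had 5.30 and 5.13 against 6.15 and 6.19 (-0.96 ± 0.14, adjusted p = 0.0119). It was called in 10 of 16 alternatives with all lenses, with log2 fold changes from -1.32 with the deposited table and its floor to -0.27 with no detection filter (adjusted p = 0.131). With no background correction its value of -0.52 was under the fold threshold, and with no normalization between arrays it was -0.39. It also lost the call without cKO B (-0.84, adjusted p = 0.105) or Control B (-0.998, adjusted p = 0.0587). Nrf1 differed by -0.17 ± 0.14.

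Of 36 tested assembly factors, 0 were elevated and 1 was reduced, against 11.6% called over all genes, with a median log2 fold change of 0.10. The reduced gene was Uqcc2, an assembly factor of complex III, with 10.30 and 10.36 in cKO against 10.82 and 11.004 in Control (-0.58 ± 0.14, limma adjusted p = 0.0448). It lost the call when any one lens was left out, with log2 fold changes from -0.66 to -0.49. It fell short of the fold threshold with no background correction (-0.56), an offset of 50 (-0.57) or cyclic loess (-0.55). Its sign turned with no normalization between arrays (0.25), where the median of all genes was 0.57.

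Transcripts of the mitochondrial genome encode further core subunits, and 6 of them were tested. mt-Nd5, a proton-pumping subunit of complex I, was reduced, with log2 values of 7.10 and 6.97 in cKO against 9.07 and 9.51 in Control (-2.25 ± 0.18, limma adjusted p = 0.00249). When one lens was left out it passed the test each time, with log2 fold changes from -2.48 to -2.05 and the limit on such fits given for Cox6a2. Its unnormalized intensity was also lower, at 204.8 and 200.3 against 485.3 and 504.3. Of the other 5 none was called, while 11.6% of all genes were. The 4 detected in both groups were higher in both cKO lenses, as were 32.6% of all genes. Among these 4, mt-Nd1 differed by 0.67 ± 0.23 (limma adjusted p = 0.0984) and mt-Co2 by 0.62 ± 0.22 (adjusted p = 0.112). mt-Nd4 differed by 0.52 ± 0.13 (adjusted p = 0.0509), and mt-Cytb by 0.38 ± 0.14 (adjusted p = 0.121). Without one lens, mt-Nd1 ran from 0.32 (without Control B) to 0.99 (without Control A, adjusted p = 0.0275) and mt-Co2 from 0.29 (without cKO B) to 0.95 (without cKO A, adjusted p = 0.0439). All 4 were called with a common median over all probes and with no normalization, where mt-Nd4 was at 0.98 and 1.02 and mt-Cytb at 0.79 and 0.83. In addition, mt-Nd1 was called with the replicate block (adjusted p = 0.0442) and mt-Co2 with the median over detected probes (0.71, adjusted p = 0.0469). The value of mt-Nd4 was 0.35 under cyclic loess, 0.26 with a common median over detected probes and 0.12 with the deposited normalized table, where the sign of mt-Cytb turned (-0.0673) and mt-Nd5, at -2.38, missed the threshold (adjusted p = 0.0573, values under 1 set to 1). mt-Nd4l, at 4.85 and 4.99 in the cKO lenses, was detected on no Control array and was tested only through the cKO arrays, so that its direction is tied to the filter. Each was measured by 1 probe.

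**Figure D5:**
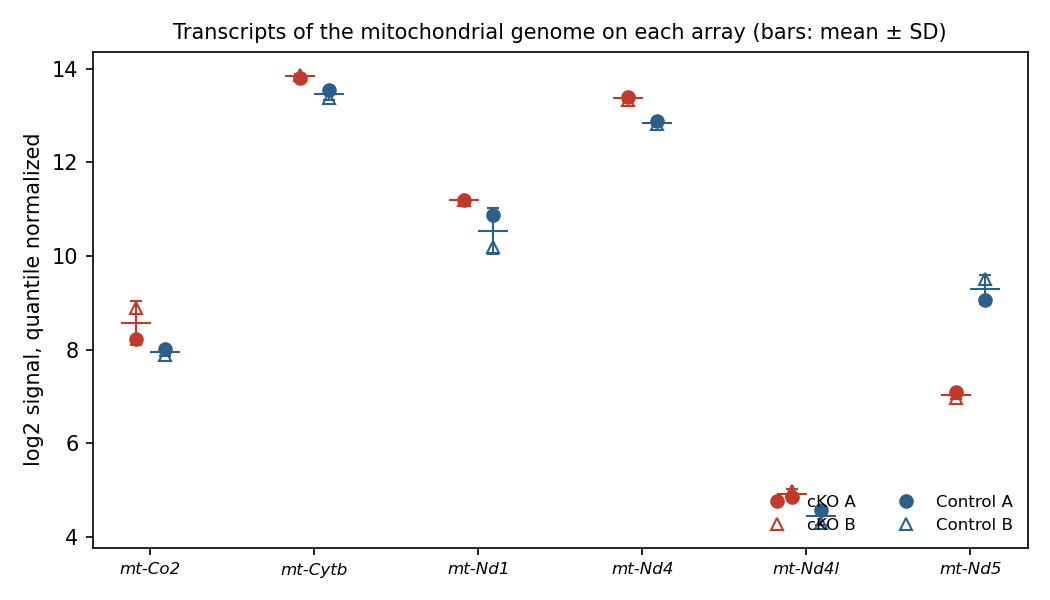
Quantile normalized log2 signal of 6 transcripts of the mitochondrial genome on each array (vertical axis), with group means ± SD as bars (n = 2). mt-Nd5 is lower in both cKO lenses, and mt-Nd1, mt-Co2, mt-Nd4 and mt-Cytb are higher in both, while mt-Nd4l was detected on no Control array.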

How the data were processed

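RNA of 4 lenses was measured on Illumina bead arrays, 1 array per lens. The authors deposited a table of unnormalized intensity and a table of normalized intensity, scaled per the file headers by the rank-invariant method, with a detection p-value for each probe that the authors' scanner software derived from negative control beads. The genome build of the probe positions is not given in the sources used here. Of the unnormalized lines, 18 had shifted cells and were dropped, none of them detected on at least 2 arrays, which left 45263 probes. Probes were assigned to genes through RefSeq (GRCm38.p6): 29586 through Entrez identifiers, 2759 through accessions, 2197 through current and 2377 through former symbols, while 8344 kept their deposited symbol.

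From the unnormalized intensity, the background was removed by neqc (limma 3.58.1 in R 4.3.3) with an offset of 16, followed by quantile normalization and log2 transformation. A probe was retained where its detection p-value was under 0.05 on at least 2 arrays (16262 probes), and probes of the same gene were averaged on the log2 scale. lmFit and eBayes of limma were run two-sided on all 11517 genes with Benjamini-Hochberg adjustment. The thresholds follow the methods of the study, whose count model (edgeR) was not applied because the values are intensities. Tables and figures were handled with Python version 3.11.15. The small number of arrays limits the precision.

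The members, the gene lists and the rule for named genes were chosen with earlier results of these data known. Named are the called members, the highest and lowest subunit of each complex, cytochrome c genes, tissue forms and their partners, X-linked subunits, genes whose probes disagreed, and the called genes of further lists. Cox6c, Cox5a, Atp5a1, Atp5b, Atp5c1, Ndufv1, Sdhd and Nrf1, and transcripts of the mitochondrial genome other than mt-Nd5, were named after their values were seen. Of the member genes tested, 1 is counted in the sums but is not reported here by name or drawn. Ndufv3 and Uqcr10, which the files list under older symbols outside the rule, were not members. As alternatives, the input table, the background correction, the scaling, the detection filter, the treatment of several probes, the variance model and the fold threshold were varied, the replicate letter was added as a block, and each lens was left out. The letters A and B were not taken as pairs, since the labels do not say so and A minus B in cKO and in Control correlated at -0.0111 across genes.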

Additional observations from a re-analysis of the deposited data

How the results depend on the processing

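The 6 called members stood at 6 or 7 calls with no background correction, with normexp and an offset of 50, with detection on all 4 arrays or at a detection p under 0.01, with the brightest probe, with probes tested one by one, with trend and robust eBayes and with no fold threshold. All 6 genes were among the calls in each of these. The extra call with single probes was the Atp5pb probe detected on no Control array. The replicate block gave 7 calls, the 6 and Uqcrb. Cyclic loess and a common median over probes detected on all 4 arrays gave 6 calls with Uqcrb in place of Atp5g3. The deposited normalized table and treat against the fold threshold gave 0 calls, no detection filter gave 1 (Dmac2l), a common median over all probes gave 47 and no normalization between arrays 49, all elevated. The deposited table with 16 added, chosen after seeing the data, gave 6 calls, with Ndufa1 reduced (-0.59) in place of Atp5g3. Without one lens the calls ran from 1 to 5, with Cox6a2 called each time. Over all genes, 1341 were called, against 7 with the deposited table and 1349 with 16 added to it, 718 with no background correction, 789 with the offset of 50, 5418 and 5789 with a common median and with no normalization (median log2 fold change of all genes 0.53 and 0.57, and 97.3% and 97.7% of calls elevated against 51.6%), 2691 with the median over detected probes (median -0.19, 24.8% elevated), 207 with no detection filter, 86 with treat, and 163 to 1357 without one lens.

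The relative median of complex IV was -0.235 with the deposited table, with or without 16 added, -0.0922 with no background correction, -0.0895 with the offset of 50, -0.0892 with cyclic loess, -0.0888 with detection on all 4 arrays, -0.0217 with no detection filter, -0.0528 with the brightest probe and -0.0989 with single probes. With a common median over all or over detected probes, or with no normalization, it was 0.0357, against 0.136 for complex I, 0.238 for complex III and 0.140 for complex V. Without one lens the relative medians ran from -0.0822 to 0.0143 for complex I, 0.0763 to 0.463 for complex II, -0.101 to 0.0668 for complex III, -0.154 to 4e-04 for complex IV and -0.0703 to 0.05 for complex V.

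Signs of genes outside the 6 calls turned as follows, and the cause was not tested. With a common median over all probes, then with no normalization, the log2 fold changes were 0.32 and 0.35 for Ndufb5, 0.67 and 0.70 for Uqcrc1, 0.42 and 0.45 for Cox7a2, 0.49 and 0.53 for Cox7a1, 0.52 and 0.56 for Cox4i1, 0.57 and 0.61 for Cox6a1, 0.60 and 0.64 for Cox6b1, 0.27 and 0.31 for Ndufa1, 0.12 and 0.16 for Cox7b, 0.72 and 0.76 for Atp5j, 0.42 and 0.46 for Atp5l, 0.21 and 0.25 for Uqcc2, and 0.0108 with no normalization for Cox4i2. With the median over detected probes they were -0.0701 for Sdhb, -0.0319 for Cycs and -0.46 for Ndufb11. Sdhb was at -0.14 and -0.0295 and Atp5o at -0.036 and -0.0427 with the deposited table as it is and with 16 added, where mt-Cytb was at -0.0673 and -0.0672. Ndufb11 was at -0.0018 with the offset of 50 and at -0.23 with detection on all 4 arrays, at a detection p under 0.01 and with the brightest probe. Atp5pb was at -0.11 with detection on all 4 arrays. With the brightest probe Atp5pb was at -0.15, Atp5l at 3e-04, Atp5o at -0.11 and Ndufs4 at -0.18, and Atp5j was at 0.0172 with no detection filter.

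Without one lens, the log2 fold changes of genes whose sign turned ran from -0.25 to 0.0636 for Ndufb11, -0.54 to 0.0771 for Cox7b, -0.13 to 0.0999 for Atp5j, -0.21 to 0.20 for Atp5pb, -0.0569 to 0.10 for Sdhb, -0.0819 to 0.21 for Atp5o, -0.17 to 0.23 for Cyc1 and -0.29 to 0.043 for Uqcrc1. No fit had the slide as a block, since no slide is named in the files. Genes with detection near background, such as Ndufb10 and Cox4i2, are limited by signal over background.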

Other observations

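Other mitochondrial genes that no comparison above used were described in the same way. Of 14 tested genes of the citric acid cycle and the pyruvate dehydrogenase complex, 0 were called with limma, against 11.6% of all genes, and the median log2 fold change was 0.19. Pdhb, a subunit of pyruvate dehydrogenase named here after its value was seen, had log2 values of 6.43 and 6.77 in cKO against 6.09 and 5.91 in Control (0.60 ± 0.17, limma adjusted p = 0.0603).

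Of 8 tested carriers, porins and related genes, 0 were called, with a median log2 fold change of 0.28. Among these 8, Slc25a4 was detected on no Control array and so was tested only through the cKO arrays. Of 14 tested genes of protein import, 0 were called, with a median of 0.07. These counts and those of the markers of other cell types stand beside the same 11.6% of all genes. Among the markers, 1 of 3 tested blood genes (Slc4a1) was reduced, and 1 of 5 vessel genes (Emcn, 1.12) and 1 of 3 macrophage genes (Cd68) were elevated. Of the retina genes 0 of 1 (Pde6b) and of the pigment cell genes 0 of 1 were called. Cd68 and Pde6b were detected on no Control array and were tested only through the cKO arrays. The other vessel genes were at 0.58 (Cdh5), -0.06 (Pecam1), -0.26 (Tek) and -0.59 (Kdr, adjusted p = 0.0516), and the other macrophage genes at -0.06 (Aif1) and -0.11 (Csf1r). The part of these markers in the results was not tested.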
